A study of Homo sapiens with 4 samples.

Results

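The contacts described here are those of a 60-kb stretch of human chromosome 11, from 62600000 to 62660000 in the hg19 build, that holds WDR74 and SLC3A2. They are all pairs of anchors with at least 1 end in that stretch, 509 of the 1125468 anchor pairs of the series. An anchor is an interval at which contacts were counted, and 6 anchors overlapped the stretch. All cells were A673, a line established from an Ewing sarcoma, whose driver is the fusion protein EWS-FLI1. In 2 libraries they were STAG2-null, made with Cas9 and grown as clones from single cells, and in the other 2 they carried wild-type STAG2. The labels name no further treatment. All 4 libraries were made by SMC1 HiChIP, in which DNA ends that lie close together are ligated and those bound by the cohesin subunit SMC1 are enriched with an antibody. The unit is the paired-end tag (PET), 1 sequenced ligation between the 2 anchors of a pair. How many clones were used, whether the wild-type cells had been cloned, and whether the libraries of a genotype are separate cultures are not given in the labels, so the spread between libraries may be technical.

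Cohesin is a ring that forms chromatin loops, often between sites bound by CTCF, and STAG1 or STAG2 sits on the ring as alternative subunits. SLC3A2 encodes the CD98 heavy chain, which carries amino acid exchangers such as SLC7A5 and SLC7A11 to the cell surface and binds integrins. WDR74 encodes a nucleolar protein that acts in the maturation of the large ribosomal subunit together with the ATPase NVL. Between them lies SNHG1, the host gene of small nucleolar RNAs that guide methylation of ribosomal RNA. HiChIP counts contacts and not transcripts, so neither the loss of STAG2 nor the identity of the cells could be checked against expression here.

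The stretch was chosen because 1 of its pairs, a short loop that joined 62605688 to 62611475 with 62616686 to 62625964, differed between the genotypes. That choice used the same contrast as the values below, which are therefore given as descriptions with no test. The authors' deposited table of differential loops flags a promoter and H3K27ac, a mark of active promoters and enhancers, at both ends of this loop, and CTCF at neither. In that table FLI1, the DNA-binding part of the fusion, is flagged at the first end. WDR74 and SLC3A2 are the genes named with a transcription start at the ends, and from their order on the chromosome the first end is called the WDR74 anchor and the second the SLC3A2 anchor.

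Promoter sequences of both genes are shown because the loop is annotated as joining a promoter at each end. They are RefSeq windows of GRCh38.p14, from 250 bases before to 50 bases after a start, and were not placed on the hg19 anchors, so where they lie within an anchor is not shown. The first is 1 of 2 windows of WDR74, on the minus strand at chr11:62839541-62839840. The second is the first of 3 windows of SLC3A2, on the plus strand at chr11:62855859-62856158. The other 2 SLC3A2 windows, at chr11:62880646-62880945 and chr11:62881449-62881748, begin 24.8 and 25.6 kb farther on and are not shown. Capitals mark matches to CCGGAAGT (an ETS-type motif), ATGGCGGC (YY1-type) and GCGCATGCG (NRF1-type), sought on both strands, none of which overlapped another.
WDR74: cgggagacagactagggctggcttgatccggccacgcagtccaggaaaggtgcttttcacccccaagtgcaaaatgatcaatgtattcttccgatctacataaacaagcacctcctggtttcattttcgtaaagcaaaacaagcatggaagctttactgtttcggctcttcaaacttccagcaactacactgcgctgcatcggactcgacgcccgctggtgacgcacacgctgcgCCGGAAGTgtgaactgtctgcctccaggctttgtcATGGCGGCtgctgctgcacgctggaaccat
SLC3A2: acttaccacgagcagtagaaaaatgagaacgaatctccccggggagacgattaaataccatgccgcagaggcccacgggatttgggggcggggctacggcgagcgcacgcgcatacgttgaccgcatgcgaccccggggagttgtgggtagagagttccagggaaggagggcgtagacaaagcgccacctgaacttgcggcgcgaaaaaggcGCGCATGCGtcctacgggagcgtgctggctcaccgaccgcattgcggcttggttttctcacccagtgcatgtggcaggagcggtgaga

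The ETS-type match began 15 bases before the WDR74 start, and 4.14% of all 35116 promoter windows held that motif on either strand. The YY1-type match began at base 21 after the same start and occurred in 2.996% of windows. The NRF1-type match began 38 bases before the SLC3A2 start and occurred in 1.92% of windows. The SLC3A2 window shared 277 bases with the SNHG1 window on the opposite strand, so the 2 genes start head to head from the same stretch of DNA, and 9 small nucleolar RNA genes lie within SNHG1. TGATGNAA (ATF4-type, 3.62% of windows) matched once, in another SLC3A2 window. GGAAGGAA, the repeat bound by EWS-FLI1 (3.67% of windows), and AGGGGGC, from the CTCF core (14.4% of windows), matched in none of the 5 windows of the 2 genes. A match, or none, describes only the letters of these windows.

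The libraries held between 661881 and 765017 PETs. Across the 11872 pairs with at least 20 PETs over the 4 libraries, edgeR's quasi-likelihood test called 11 loops higher (0.0927%) and 15 lower (0.126%) in STAG2-null cells at an adjusted p under 0.05. Levels are given as normalised PETs, which are PETs per 1000000 of a library's total after TMM scaling over these loops. The stretch lies in a 10-Mb window, from 60 to 70 Mb of chromosome 11. Sparse pairs of that window (at most 4 PETs each, 27034 PETs in all) stood at a log2 ratio of -0.17 in STAG2-null over wild-type cells. That ratio used plain library totals without TMM scaling, and all PETs of chromosome 11 stood at -0.07 on the same scale.

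The 6 anchors were, in order, upstream anchors 1 and 2 (62598015 to 62601290 and 62602102 to 62604075), the WDR74 and SLC3A2 anchors, and downstream anchors 1 and 2 (62646187 to 62652687 and 62655368 to 62660155). Downstream anchor 1 is flagged for CTCF and H3K27ac and downstream anchor 2 for neither in the authors' deposited table, which names SLC3A2 as the gene of their loop and no transcription start at either. The WDR74 anchor was 5.79 kb and the SLC3A2 anchor 9.28 kb wide, against a median of 2.34 kb for all anchors of the series, and a gap of 5.21 kb parted them. Levels of pairs are not divided by anchor width here.

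Of the 509 pairs, 278 rested on 1 PET, 203 on 2 to 9, 15 on 10 to 19 and 13 on at least 20. Their anchors lay a median of 437 kb apart and at most 1997 kb. The WDR74 and SLC3A2 anchors each had 110 partners besides each other, and 71 partners were common to both, 64.5% of each list. Those common partners held 88.9% of the WDR74 anchor's PETs and 87.4% of the SLC3A2 anchor's PETs outside the short loop.

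The short loop, 12.7 kb between midpoints, was the strongest contact of the stretch. Its PETs numbered 49 in STAG2-null 1 and 45 in STAG2-null 2, against 22 in wild-type 1 and 15 in wild-type 2. Both STAG2-null libraries lay above both wild-type libraries. The loop averaged 66.1 ± 6.89 normalised PETs in STAG2-null cells and 27.1 ± 9.19 in wild-type cells (SD, n = 2 each), a log2 change of 1.29 ± 0.30 (SE of the fit). It was 1 of the 11 loops called higher, 0.0927% of those tested, and that difference is what picked it. Leaving out wild-type 2, the library with the lowest count, moved the log2 change to 0.97, and leaving out wild-type 1 moved it to 1.67, neither then past the threshold.

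By strength over all libraries the loop ranked 156 among the 1125468 pairs. Of the 18470 pairs of 10 to 15 kb, 39 had at least as many PETs, and the median of that distance class was 6 PETs. The log2 change of the 1937 tested loops of this length had a median of 0.06, with a 10th percentile of -0.73 and a 90th percentile of 0.82. Of these loops, 59 had a log2 change at least as high as the short loop, itself included.

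**Figure D1:**
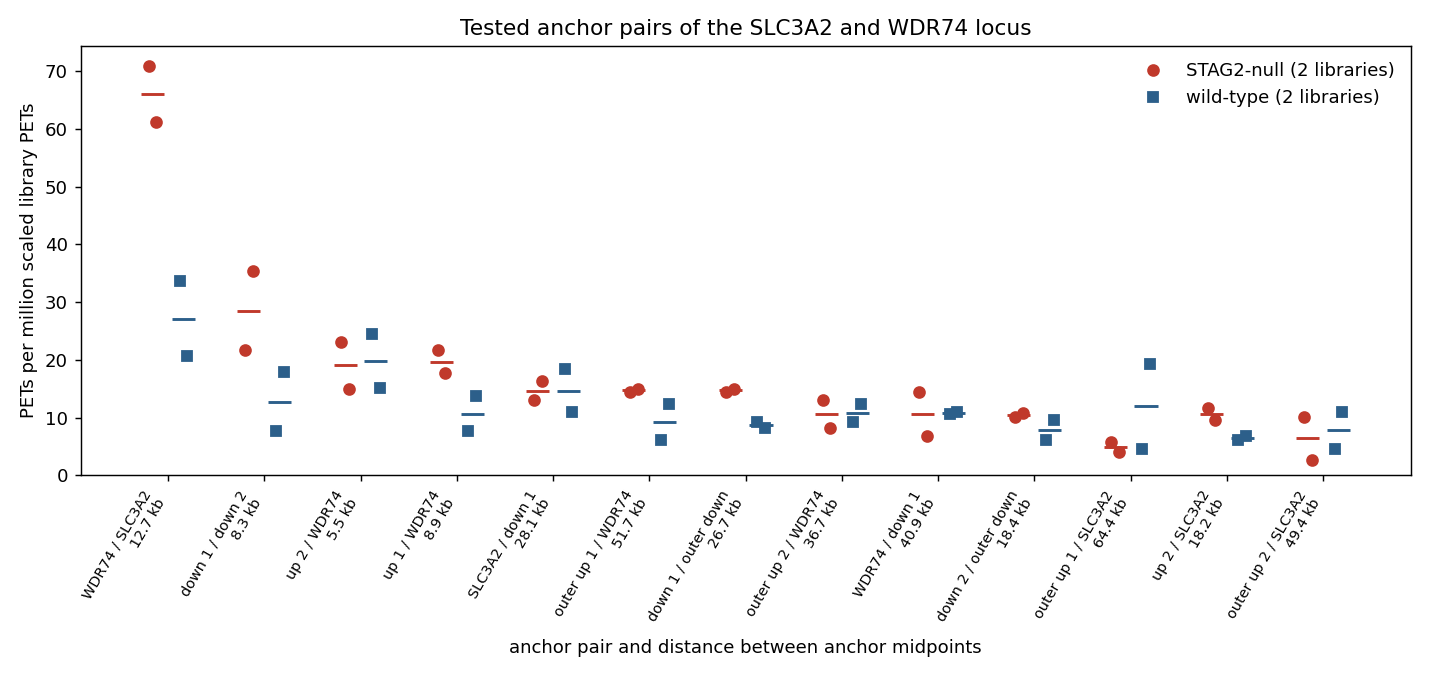
Normalised PETs (vertical axis) of the 13 pairs of the stretch with at least 20 PETs, ordered by total, with STAG2-null libraries as circles on the left and wild-type libraries as squares on the right of each pair, and a bar at each mean. The short loop averages 66.1 in STAG2-null cells, against 27.1 in wild-type cells, above every other pair in both genotypes.

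The short loop took a larger part of all contacts at its ends in STAG2-null cells. These shares contain the counts that picked the loop, so they restate its difference and are no further result. At the WDR74 anchor it made up 27.8% and 27.3% of PETs in the STAG2-null libraries and 17.7% and 11.2% in the wild-type libraries. At the SLC3A2 anchor it made up 29.5% and 30.4% in the STAG2-null libraries and 21.4% and 11.1% in the wild-type libraries. The 95% Wilson intervals, which cover counting error only, ran from 21.7% to 34.9% for STAG2-null 1 and from 12.02% to 25.4% for wild-type 1 at the WDR74 anchor, so they overlapped between these libraries. For wild-type 2 the interval at that anchor, 6.90% to 17.6%, lay below those of both STAG2-null libraries. The intervals describe single libraries and are no test between the genotypes. The mean share at the WDR74 anchor was 27.6 ± 0.402% in STAG2-null cells and 14.5 ± 4.63% in wild-type cells (SD, n = 2 each). At the SLC3A2 anchor it was 29.96 ± 0.627% in STAG2-null cells and 16.2 ± 7.25% in wild-type cells (SD, n = 2 each).

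**Figure D2:**
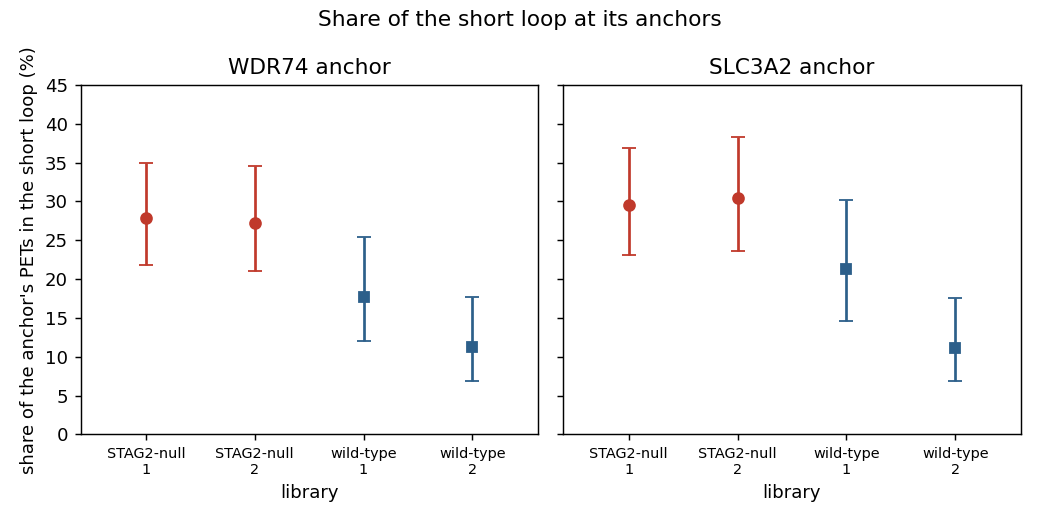
Share of an anchor's PETs that belonged to the short loop (vertical axis, percent) per library, with 95% Wilson intervals, for the WDR74 anchor (left panel) and the SLC3A2 anchor (right panel). STAG2-null libraries (circles) sit between 27.3% and 30.4%, and wild-type libraries (squares) between 11.1% and 21.4%.

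With the short loop counted in, the WDR74 anchor held 176 and 165 PETs in the STAG2-null libraries, against 124 and 134 in the wild-type libraries. Without it the same anchor held 127 and 120 PETs in the STAG2-null libraries, against 102 and 119 in the wild-type libraries. Without the loop the genotypes overlapped when scaled like the loops and did not overlap with the factors of the anchor sums, at 185 and 172 normalised PETs in the STAG2-null libraries, against 155.3 and 155.2 in the wild-type libraries. The log2 change was 0.44 ± 0.15 with the loop and 0.20 ± 0.16 without it in the fit of anchor sums, which held 60425 anchors. Scaled like the loops, the value without the loop was 0.12.

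The SLC3A2 anchor held 166 and 148 PETs in the STAG2-null libraries, against 103 and 135 in the wild-type libraries with the short loop. Without it the counts were 117 and 103 in the STAG2-null libraries, against 81 and 120 in the wild-type libraries, and the genotypes overlapped under either scaling, with wild-type 1 the lowest library. The log2 change was 0.44 ± 0.15 with the loop and 0.17 ± 0.17 without it, and 0.10 without it when scaled like the loops. Of the 6 anchors of the stretch 0 passed the threshold in edgeR (3 at an unadjusted p under 0.05) or in DESeq2 (2 unadjusted, where 1.86% of all anchors passed). Over all anchors, edgeR called 0.412% higher and 0.96% in either direction, and 5.81% were higher at an unadjusted p under 0.05.

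The largest log2 change of the 6 anchors was at downstream anchor 2, which is no end of the short loop. It held 65 and 73 PETs in the STAG2-null libraries, against 41 and 55 in the wild-type libraries, without overlap (0.56 ± 0.21). These counts include its pair with downstream anchor 1, at 15 and 26 PETs in the STAG2-null libraries, against 5 and 13 in the wild-type libraries. No sum without that pair is given. Downstream anchor 1 held 95 and 100 PETs in the STAG2-null libraries, against 81 and 90 in the wild-type libraries (0.23 ± 0.18). Upstream anchor 1 stood at 0.33 ± 0.23 and upstream anchor 2 at -0.10 ± 0.24. Downstream anchor 2 was, with the ends of the short loop, the third anchor under an unadjusted p of 0.05.

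The other tested pairs of the WDR74 anchor had smaller log2 changes than the short loop. The contact with upstream anchor 1, 8.93 kb away, held 15 and 13 PETs in the STAG2-null libraries, against 5 and 10 in the wild-type libraries. Its libraries did not overlap, with a log2 change of 0.85 ± 0.48. The nearer contact with upstream anchor 2, at 5.49 kb, held 16 and 11 PETs in the STAG2-null libraries, against 16 and 11 in the wild-type libraries. That pair, the second strongest of the anchor, stood at -0.05 ± 0.42 and overlapped between the genotypes.

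Farther contacts of the WDR74 anchor went both ways. The pair with outer upstream anchor 1 (62553245 to 62560613, 51.7 kb away) held 10 and 11 PETs in the STAG2-null libraries, against 4 and 9 in the wild-type libraries, without overlap (0.64 ± 0.53). The pair with outer upstream anchor 2 (62568985 to 62574794, 36.7 kb away) held 9 and 6 PETs in the STAG2-null libraries, against 6 and 9 in the wild-type libraries (-0.04 ± 0.55). The pair with downstream anchor 1 held 10 and 5 PETs in the STAG2-null libraries, against 7 and 8 in the wild-type libraries (-0.04 ± 0.55). The last 2 pairs overlapped between genotypes. By distance, the WDR74 anchor's other contacts stood at a log2 ratio of -0.19 at 20 to 50 kb, -0.04 at 50 to 100 kb and -0.18 at 100 to 200 kb, all with overlap between the genotypes. Summed over 26 partners 200 to 500 kb away, it held 21 and 32 PETs in the STAG2-null libraries, against 14 and 16 in the wild-type libraries, without overlap (log2 ratio 0.77). Its 53 partners beyond 500 kb held 23 and 14 PETs in the STAG2-null libraries, against 18 and 22 in the wild-type libraries, with overlap (-0.14). The WDR74 anchor's 2 other contacts under 20 kb stood at 0.35, without overlap. At the SLC3A2 anchor, the 1 other contact under 20 kb stood at 0.70 and the 4 at 20 to 50 kb at 0.35, both without overlap. Its contacts at 50 to 100 kb stood at -0.08 and those at 100 to 200 kb at -0.15. Those at 200 to 500 kb stood at 0.03 and those beyond 500 kb at 0.10. From 50 kb on, each class of the SLC3A2 anchor overlapped. The 70 upstream partners of the WDR74 anchor stood at 0.20, without overlap, and its 40 downstream partners at -0.15, with overlap. For the SLC3A2 anchor, 66 upstream partners stood at 0.07, with overlap, and 44 downstream partners at 0.15, without overlap.

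At the SLC3A2 anchor, the pair with downstream anchor 1, 28.1 kb away, held 9 and 12 PETs in the STAG2-null libraries, against 12 and 8 in the wild-type libraries. The genotypes overlapped, at a log2 change of 0.02 ± 0.48. The pair with upstream anchor 2 held 8 and 7 PETs in the STAG2-null libraries, against 4 and 5 in the wild-type libraries, without overlap (0.68 ± 0.62). The pair with outer upstream anchor 1 held 4 and 3 PETs in the STAG2-null libraries, against 3 and 14 in the wild-type libraries. Its log2 change of -1.29 ± 0.64 rested on wild-type 2 and was 0.10 without that library. The pair with outer upstream anchor 2 held 7 and 2 PETs in the STAG2-null libraries, against 3 and 8 in the wild-type libraries (-0.33 ± 0.67), also overlapping. It was the weakest pair tested, at 20 PETs, and the strongest pair under the minimum, from outer upstream anchor 1 to downstream anchor 1 with 17, held 3 and 3 PETs in the STAG2-null libraries, against 4 and 7 in the wild-type libraries.

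A second short contact, at neither end of the short loop, had a log2 change of nearly the same size. Downstream anchors 1 and 2, 8.32 kb apart, shared 15 and 26 PETs in the STAG2-null libraries, against 5 and 13 in the wild-type libraries, without overlap. The means were 28.5 ± 9.64 normalised PETs in STAG2-null cells and 12.8 ± 7.25 in wild-type cells (SD, n = 2 each), a log2 change of 1.13 ± 0.42 that did not pass the threshold over all loops. That size depended on single libraries, at 0.73 without STAG2-null 2, 0.68 without wild-type 1 and 1.89 without wild-type 2. This contact is the second pair of the stretch in the authors' deposited table, at a log2 fold change of -1.17 (wild type over mutant) with an adjusted p of 0.0648, beside -1.33 and 0.00647 for the short loop. That table flags no promoter at either of its ends. In GRCh38.p14 the 2 farther SLC3A2 starts lie 24.8 and 25.6 kb past the first. Downstream anchor 1 lies 28.1 kb past the SLC3A2 anchor between midpoints in hg19, so these starts may lie in it. That was not determined, because the windows were not placed on hg19. The 288 pairs at neither the WDR74 nor the SLC3A2 anchor together held 173 and 176 PETs in the STAG2-null libraries, against 158 and 166 in the wild-type libraries, with overlap after scaling (log2 ratio 0.06). Those of downstream anchors 1 and 2 with the outer downstream anchor (62672220 to 62680027) stood at 0.75 ± 0.54 and 0.39 ± 0.60.

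**Figure D3:**
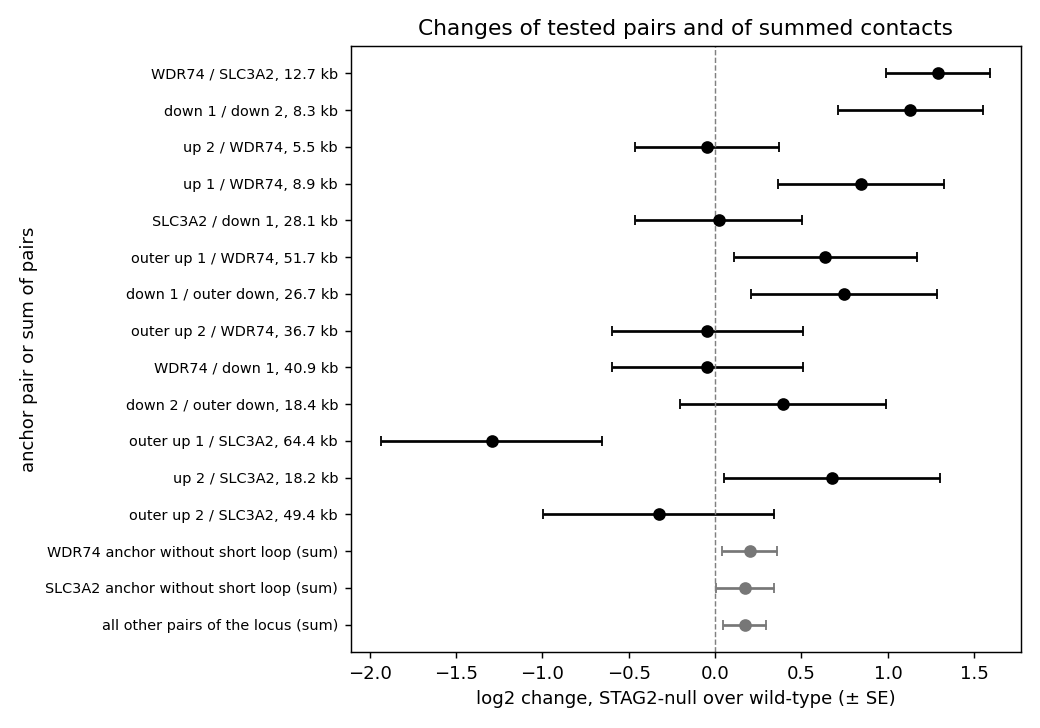
Log2 change of STAG2-null over wild-type cells with its SE (horizontal axis) for the 13 tested pairs, ordered by total from the top, and for the 3 sums of contacts without the short loop. The short loop (1.29) and the pair of downstream anchors (1.13) lie farthest to the right, and the 3 sums lie between 0.17 and 0.20.

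Of the 12 other tested pairs, 0 were called in edgeR (at an unadjusted p under 0.05, 1 was higher and 1 was lower). DESeq2 called 0 (0 unadjusted) and did not call the short loop either. In edgeR 0.219% of all tested loops were called in either direction. Unadjusted, 4.81% were higher, 4.88% lower and 9.69% either in edgeR, and 1.19% passed in DESeq2. Both STAG2-null libraries lay above both wild-type libraries in 6 of the 12, where 19.7% of all tested loops did so, and below them in 0, where 20.3% did. With at least 10 PETs, 11 of 27 other pairs lay above (16.5% of all such pairs) and 3 below (20.6%). In these counts higher values in both STAG2-null libraries were thus not confined to the short loop. None of the 12 passed the threshold over all loops, but only 0.219% of all tested loops did, so this does not set the short loop apart. Since the stretch was chosen on this contrast and its pairs share anchors, nothing more is read from these shares. The median log2 change of the 12 was 0.21, from -1.29 to 1.13, against -0.04 over all tested loops.

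Grouped by length, the other pairs stood highest in the shortest class. The 5 other pairs under 20 kb held 61 and 65 PETs in the STAG2-null libraries, against 34 and 46 in the wild-type libraries, a log2 ratio of 0.62. Those of 20 to 100 kb held 120 and 110 PETs in the STAG2-null libraries, against 98 and 120 in the wild-type libraries (0.04). Those over 100 kb held 236 and 224 PETs in the STAG2-null libraries, against 209 and 239 in the wild-type libraries (-0.01). Of these 3 classes, that under 20 kb did not overlap between the genotypes and the other 2 did. Over the whole series, the 6776 tested loops under 20 kb had a median log2 change of 0.09, and the 233 of them in the same 10-Mb window of -0.01. All 508 other pairs together stood at 0.17 ± 0.12 in the fit of anchor sums and at 0.09 when scaled like the loops, without overlap on the first scale and with overlap on the second. The 496 of them with under 20 PETs stood at 0.00094 on the latter scale.

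Within the 6 anchors, the 13 pairs other than the short loop held 88 and 88 PETs in the STAG2-null libraries, against 59 and 66 in the wild-type libraries, without overlap (log2 ratio 0.45). Among them, and chosen after their values were seen, the contact of the SLC3A2 anchor with downstream anchor 2 held 7 and 4 PETs in the STAG2-null libraries, against 0 and 2 in the wild-type libraries. The contact of the WDR74 anchor with the same downstream anchor lay the other way, with 0 and 2 PETs in the STAG2-null libraries, against 2 and 4 in the wild-type libraries. Outside the stretch, the nearest anchors on either side held similar counts in both genotypes. Outer upstream anchor 2 had 92 and 79 PETs in the STAG2-null libraries, against 79 and 88 in the wild-type libraries, and the outer downstream anchor had 107 and 113 in the STAG2-null libraries, against 104 and 118 in the wild-type libraries. Because the short loop was picked for its change, the difference between it and the other pairs was not tested.

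**Figure D4:**
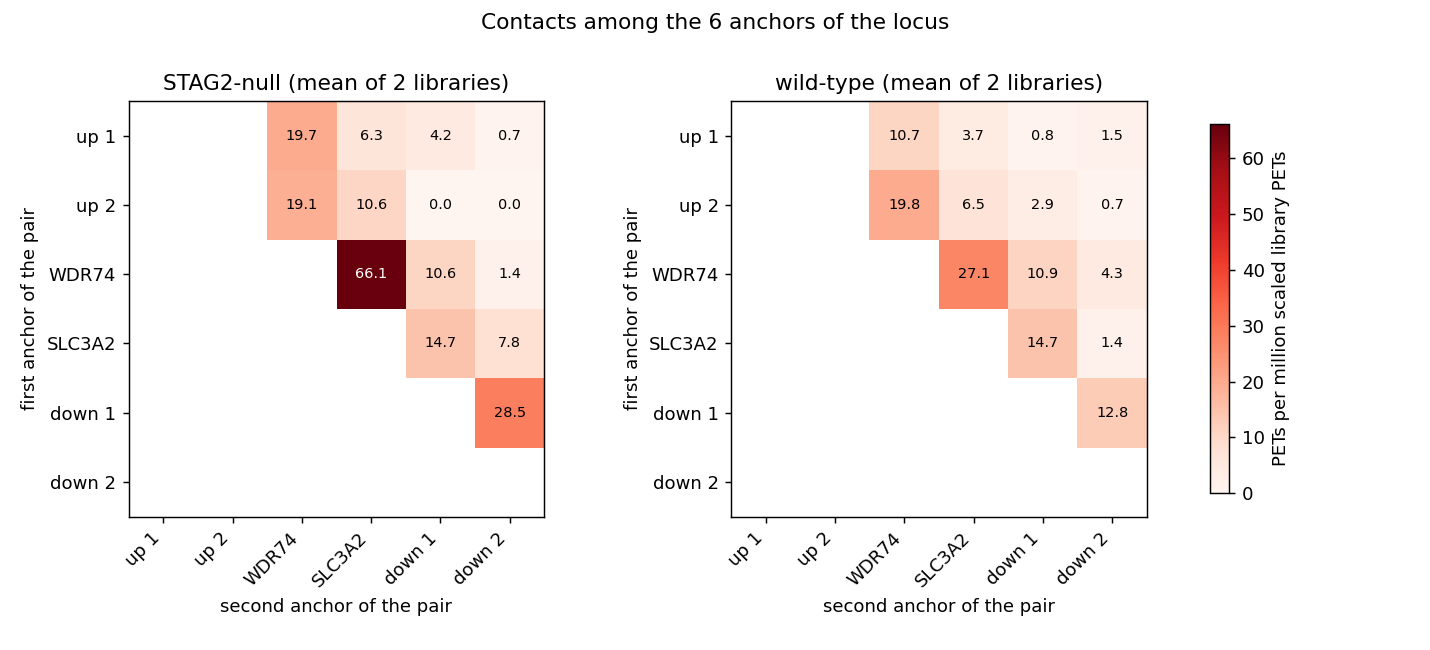
Mean normalised PETs for each pair of the 6 anchors in STAG2-null cells (left) and wild-type cells (right), with anchors in chromosomal order on both axes and a shared colour scale. The WDR74 and SLC3A2 pair reads 66.1 and 27.1, the pair of downstream anchors 28.5 and 12.8, and the pair of upstream anchor 2 with WDR74 19.1 and 19.8.

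The contacts around the short loop can be set beside those around the other loops called higher, with no test. The remaining contacts of its 2 anchors, 889 PETs, stood at a log2 ratio of 0.11 on the scale of the loops. Over all 11 such loops this ratio ran from -0.10 to 0.74, with a median of 0.40 and 10 above 0. No such ratio is given here for uncalled loops, so these values have no background. By PETs the loop ranked 3 among the 11. Of the 11, 7 were under 20 kb, as were 6776 of all 11872 tested loops.

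The tested loops with a named gene whose 4 log2 normalised values lay nearest to those of the short loop were at EPHA2, an ephrin receptor gene on chromosome 1, CAV1, the caveolin gene on chromosome 7, and UNCX, a homeobox gene on chromosome 7. Their Euclidean distances over the 4 libraries were 0.425, 0.615 and 0.806, among 249 tested loops with a gene named in the authors' deposited table of differential loops. Those 249 had thus already been picked on the same contrast of genotypes, so a shared direction with the short loop is no further result. The EPHA2 loop, 10.3 kb long, held 51 and 40 PETs in the STAG2-null libraries, against 28 and 17 in the wild-type libraries (0.96 ± 0.29). The CAV1 loop, 56.5 kb long, held 37 and 39 PETs in the STAG2-null libraries, against 17 and 13 in the wild-type libraries (1.29 ± 0.33). The UNCX loop, 16.6 kb long, held 39 and 43 PETs in the STAG2-null libraries, against 24 and 25 in the wild-type libraries (0.69 ± 0.29). Only the CAV1 loop was among the 11 called higher. Likeness here means only similar counts in the same libraries.

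In the authors' deposited table, the short loop ranked 11 by p-value among 650 differential loops, of which 350 are stronger in mutant and 300 in wild-type cells. A promoter is flagged at both ends in 73 of these loops, and 16 of the 73 have CTCF at neither end. Of those 16, 13 are stronger in mutant cells, the short loop among them, and 3 in wild-type cells. This class was set by the short loop's own flags, so nothing is read from its directions. The authors' deposited table of 22680 high-confidence loops holds 19 pairs of the stretch.

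**Figure D5:**
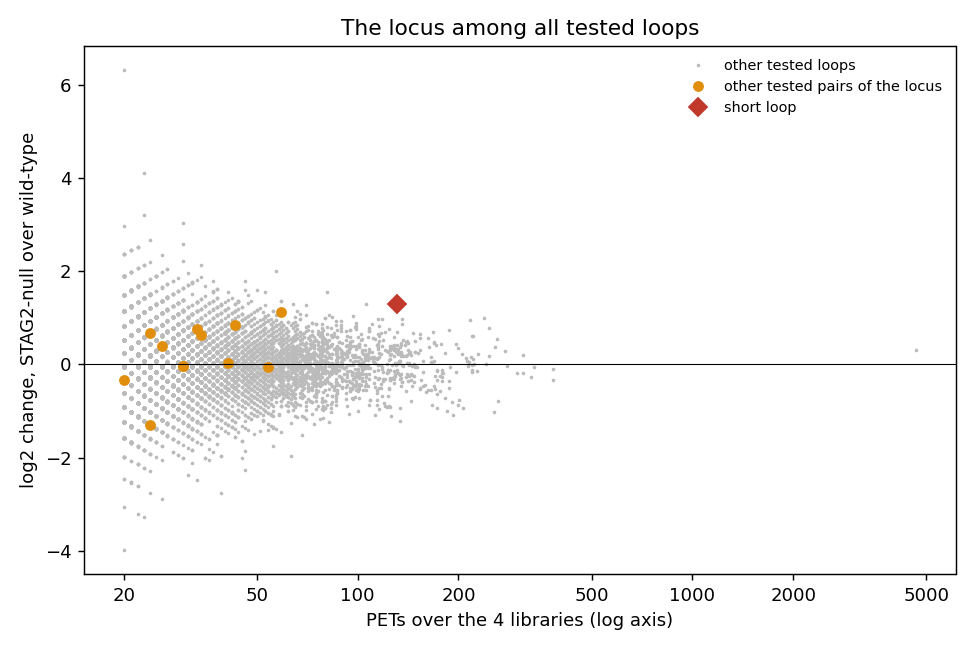
Log2 change of STAG2-null over wild-type cells (vertical axis) against PETs over the 4 libraries (horizontal log axis) for the 11872 tested loops. The short loop (diamond, 131 PETs, 1.29) is 1 of 11 called higher, and the 12 other tested pairs of the stretch (circles) lie between -1.29 and 1.13.

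Genes that work with the 2 proteins could hardly be followed, because promoters were placed only through the differential loops that the authors' deposited table names. Of 10 genes listed with SLC3A2 (its paralogue SLC3A1, light chains, integrin beta 1, galectin 3 and basigin), 0 were named there. Of 18 neighbouring genes 0 were named, and of 8 small nucleolar RNA host genes 0. Of 14 genes of ribosome biogenesis listed with WDR74, 1 was named. That gene, BOP1, acts in the maturation of the large ribosomal subunit and has its start on chromosome 8. Its promoter anchor held 110 and 91 PETs in the STAG2-null libraries, against 119 and 118 in the wild-type libraries, a log2 change of -0.20 ± 0.17 that did not pass the threshold.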

How the data were processed

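The authors deposited, for each library, a count of PETs per anchor pair with a p-value, which was not used. Per the submitters' processing notes, HiC-Pro was used with hg19, with no version stated. Settings of the loop caller are not given in the sources. Per the file headers, the 2 deposited tables of loops give counts, p-values and, for differential loops, a log2 fold change (wild type over mutant by its sign) and an adjusted p-value (IHW). Counts were taken from the per-library files, with starts moved to 1-based coordinates.

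Pairs and anchor sums with at least 20 PETs were fitted with edgeR 4.0.16 (R 4.3.3; glmQLFit with robust shrinkage, glmQLFTest) on genotype alone. Library totals covered every pair, TMM factors used tested rows only, and p-values were adjusted (Benjamini-Hochberg) over all rows, with calls under 0.05. The fit was tested on simulated data. SEs are the log2 change over the root of F. Intervals (Wilson, 95%, scipy 1.17.1) cover counting error only.

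The named pairs are the short loop, all others with at least 20 PETs and the 3 strongest per anchor of the loop. The strongest pair under the minimum and 2 contacts of downstream anchor 2 are named outside this rule. Like loops are the 3 nearest by Euclidean distance, after adding 0.5 to normalised PETs. The members, lists and tests were chosen with earlier results of these data known. DESeq2 1.42.0, other scalings, minimums, merged anchors, a replicate block and left-out libraries were tried as alternatives.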

Additional observations from a re-analysis of the deposited data

How the results depend on the processing

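The short loop stayed between 0.97 and 1.67 on the log2 scale under 15 alternatives, and passed the threshold in 9 of them. With anchors merged within 5 kb (1.28), 1 of the 9, the loop also took in the SLC3A2 anchor's pairs with upstream anchors 1 and 2. It did not pass with DESeq2 (1.30), with no minimum of PETs (1.34), or without any single library (0.97 to 1.67, at adjusted p between 0.128 and 0.606 in edgeR). Scaling by chromosome and by 10-Mb window, which moved the median of all tested loops to 0.11 and 0.12, gave 1.45 and 1.46. None of the 12 other tested pairs was called under any alternative that tested it, but some alternatives called no loop at all. With at least 40 PETs only some of the 12 were tested. With merged anchors a different set of pairs was tested, of which none was called. Of the 160 values of the 12 pairs, 11 moved by more than the spread between libraries.

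Loops called higher were 5 with scaling by window, 6 with at least 10 PETs, 7 with at least 40, 2 with anchors merged within 5 kb, 0 with DESeq2 or no minimum, and 0 to 3 without 1 library, against 11. Loops called lower were 5 with plain totals, 1 with scaling by chromosome or window, 2 by length class, 4 with at least 10 PETs, 3 with merged anchors, 0 with DESeq2 or no minimum, and 0 to 4 without 1 library, against 15. Anchors called were 60 higher and 44 lower with scaling by chromosome, 0 and 0 by window, 2 and 20 with DESeq2, and 2 to 28 and 1 to 49 without 1 library, against 249 and 331. Unadjusted, DESeq2 passed 141 loops, fits without 1 library 753 to 1163 loops, no minimum 27525 pairs and window scaling 4595 anchors.

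Contacts of the WDR74 anchor without the short loop stood at 0.28 with scaling by chromosome and by window, 0.0409 with merged anchors and 0.15 to 0.26 without 1 library. All other pairs of the stretch stood at 0.24, 0.25 and 0.0943 with scaling by chromosome, by window and with merged anchors, and at 0.12 to 0.22 without 1 library. Those of the SLC3A2 anchor ranged from 0.02 to 0.37 without 1 library. The cause was not tested. Scaling by length class could not be applied to anchor sums, which mix lengths.

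Libraries with the same number did not deviate together (r = 0.00242 over 11872 loops, which are not independent). With the replicate number as a block, in a pairing the labels do not state, the short loop stood at 1.29 and the calls were 9 higher and 15 lower loops and 224 higher and 302 lower anchors, with the WDR74 anchor, SLC3A2 anchor and other pairs at 0.20, 0.18 and 0.17. Robust shrinkage was taken up after a first fit without it; that fit, an alternative chosen after seeing the data, called 10 loops higher and 13 lower and changed no call of the stretch. Of the 509 pairs, 496 lay under the minimum and were not tested singly.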
